A study of Mus musculus with 6 samples.

Results

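The elastic fibre and crosslinking genes of lung endothelial cells (EC) were examined in 6 RNA-seq libraries of mice, 3 per age (infant and young adult). The group held the 10 genes Eln, Fbn1, Fbln1, Fbln2, Fbln5, Mfap2, Mfap4, Mfap5, Lox and Loxl1, which were picked by symbol from the 12623 genes of the deposited RPKM table. All 10 were found, in 12 transcript rows, and all 10 passed the filter on low values. The mice were C57BL/6N. Infant lungs were taken 8 to 10 days after birth and young adult lungs at 8 to 12 weeks. Female animals are named in the methods, but all infant libraries held reads of Y-linked genes. For Ddx3y the infant values were 20.6, 16.5 and 21.9 RPKM, and it was listed at 0 in all young adult libraries, as were Eif2s3y, Kdm5d and Uty. Xist, which is transcribed from the inactive X chromosome of females, was found in every library, at 7.6 to 8.7 RPKM in infant and 12.5 to 15.6 RPKM in young adult EC. Age and the sex of the animals therefore cannot be told apart in this comparison, and the number of animals behind each library is not given in the sources used here. No genotype or treatment separated the groups by their labels. Live cells carrying CD31 and CD34 and lacking PTPRC, LYVE1, PDPN and LY76 were sorted from collagenase-digested lung. The comparison was made to find what changes as EC stop growing and become quiescent.

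Elastic fibres give the lung and its vessels the ability to stretch and recoil. Their core is elastin, the product of Eln, which is deposited on microfibrils built from fibrillin and then crosslinked by lysyl oxidases. Fibulins connect elastin to the microfibrils and to the cell surface. In the growing lung, elastin is laid down at the tips of the septa that divide the air spaces, and it is known as a product of fibroblasts and smooth muscle cells as well as of arterial EC.

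8 of the 10 genes were called lower in young adult EC, and 2 were not called. Mfap4, Eln, Fbln1, Fbn1, Mfap5, Loxl1, Fbln2 and Lox fell. Mfap4 fell by 5.09 on the log2(RPKM + 1) scale and Lox, at the other end, fell by 1.39. This order depends on the added 1, which weighs on low genes such as Lox. With 0.1 added instead, the log2 fold change was -3.10 for Lox and -2.09 for Fbln2. The genes not called were Fbln5 and Mfap2, of which Mfap2 had a limma adjusted p of 0.0371 but stayed under the fold threshold. Mfap2 remained among the most abundant transcripts of the libraries at both ages. Calls required an adjusted p (limma, Benjamini-Hochberg over 12458 genes) under 0.05 and a log2 fold change beyond 0.81 in either direction. This is the fold threshold of the study, but applied here to log2(RPKM + 1), where it is stricter for low genes. By this rule 8.1% of all tested genes were called lower and 3.33% higher, against 8 and 0 of the 10 genes, which all had a negative log2 fold change. The median log2 fold change of the 10 genes was -2.51, and that of all tested genes was -0.07. Leaving out young adult replicate 1 left 4 calls, and leaving out young adult replicate 2 left 5. In these fits 4.14% and 4.43% of all tested genes were called lower. Only 2 calls were made when each difference was tested against the fold threshold itself (limma treat), where 0.995% of all tested genes were called lower.

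Infant replicate 2 stood apart from the other infant libraries, since each of the 10 genes was lowest in it within its group. Markers of other cell types moved with the age groups too. The 10 fibroblast markers found in the table were all lower in young adult EC, 9 of them called. Their summed RPKM lay between 256.0 and 1126.4 in infant and between 9.1 and 20.8 in young adult libraries. The infant sum was led by the collagen genes Col3a1 (482.5, 99.4 and 323.6 RPKM in infant replicates 1 to 3), Col1a1 and Col1a2. All 13 mural cell markers found were lower, 12 of them called, and their sum lay between 87.7 and 272.4 RPKM in infant and between 13.9 and 19.8 RPKM in young adult libraries. 0 markers of either list were at 0 in all young adult libraries, although Meg3 and Cspg4 were listed at 0 in young adult replicate 1. The 14 endothelial markers summed to between 4172 and 6242 RPKM in infant and between 6760 and 7064 RPKM in young adult libraries, with 1 called higher and none lower. In these bulk samples, fewer cells of a type and less RNA per cell cannot be told apart. The part of fibroblasts and mural cells in the values that follow was not tested.

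Upstream sequence of 5 of the 10 genes was found in the RefSeq promoter table (GRCm38.p6, the coordinates of mm10), in 8 windows. A window at the outermost annotated start was found for 3 genes. Of these, Mfap2 and Fbln5 were not called and Fbln1 was called lower. Only these 3 windows are printed. Each is written 5′ to 3′ on the strand of its gene and ends just before the start site or the first annotated exon base. Capitals mark every match, on either strand, to any of 7 motifs. The first was the TATA box, spelled TATAAA. The CCAAT box was searched as its name is spelled. The GC box bound by Sp1 was searched as GGGCGG. For AP-1 the letters TGACTCA were used. The Smad element was read as CAGACA. The TEAD element was read as GGAATG, and the last was the CArG box. The Mfap2 window lies at chr4:141010174-141010417 on the plus strand, Fbln5 at chr12:101819120-101819369 on the minus strand and Fbln1 at chr15:85205699-85205948 on the plus strand.
Mfap2: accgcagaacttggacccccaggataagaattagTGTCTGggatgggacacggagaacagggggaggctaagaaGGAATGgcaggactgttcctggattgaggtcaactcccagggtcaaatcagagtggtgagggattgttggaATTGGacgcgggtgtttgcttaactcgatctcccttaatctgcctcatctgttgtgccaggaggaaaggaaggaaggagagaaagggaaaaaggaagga
Fbln5: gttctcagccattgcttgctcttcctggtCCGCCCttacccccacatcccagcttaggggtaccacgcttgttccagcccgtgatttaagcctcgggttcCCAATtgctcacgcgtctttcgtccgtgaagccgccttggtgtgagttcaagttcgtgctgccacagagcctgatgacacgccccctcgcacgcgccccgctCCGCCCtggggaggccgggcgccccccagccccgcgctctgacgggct
Fbln1: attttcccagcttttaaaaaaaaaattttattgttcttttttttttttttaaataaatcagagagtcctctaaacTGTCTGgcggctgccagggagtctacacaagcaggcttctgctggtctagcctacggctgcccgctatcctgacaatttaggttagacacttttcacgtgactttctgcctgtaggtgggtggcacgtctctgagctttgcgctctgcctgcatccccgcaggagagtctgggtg

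The Mfap2 window held 1 match each to the CCAAT box, the Smad element and the TEAD element. That of Fbln5 held 1 match to the CCAAT box and 2 to the GC box, and that of Fbln1 held 1 match to the Smad element. Among all 32851 promoter windows of 250 bases, 33.8% held the CCAAT box, 32.7% the GC box, 17.1% the Smad element and 12.6% the TEAD element. The TATA box (12.4% of all windows), the AP-1 site (4.46%) and the CArG box (1.47%) had no match in any of the 8 windows of these genes. GC content was 51.2% in the Mfap2, 65.2% in the Fbln5 and 46.4% in the Fbln1 window before trimming, against a median of 52.4% over all windows. The windows of the other annotated starts differed from these. That of Mfap2 had a GC content of 68.8% and 2 matches to the GC box. That of Fbln5 had 49.6% and 1 match to the Smad element but none to the GC box. That of Fbln1 had 62.4% and 1 match each to the GC box and the Smad element. This second Fbln1 window overlaps the printed one, and its Smad match is the same site. A match describes letters only.

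In all that follows, values in each library are given in the order of replicates 1 to 3. Eln (chromosome 5, 134702595 to 134747368, minus strand), which encodes tropoelastin, measured 641.1, 48.1 and 414.5 RPKM in infant replicates 1 to 3. It measured 6.1, 8.7 and 6.3 RPKM in young adult replicates 1 to 3. The lowest infant library was thus 5.53 times the highest young adult library, although the infant libraries themselves spanned a 13.3-fold range. The infant mean was 367.9 ± 299.2 and the young adult mean 7.03 ± 1.45 RPKM (SD, n = 3 each), a ratio of 52.3. The log2 fold change was -4.89 ± 0.84 (SE) with a limma adjusted p of 0.00771, and Eln was called in each of the 6 fits without 1 library. Among all genes by mean RPKM, Eln held rank 61 in infant and rank 5668 in young adult EC. 267 of its exon bases also belong to Gm30003, an antisense gene, and the library kit did not mark the strand.

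Among microfibril genes, Fbn1 (chromosome 2, 125300594 to 125506485), which encodes fibrillin-1, the backbone of the microfibril, measured 21, 4.3 and 24.2 RPKM in infant libraries. In young adult libraries it measured 1.0, 1.3 and 0.9 RPKM, so that the groups did not overlap. It fell by 2.80 on the log2 scale (SE 0.53, adjusted p 0.0107, called in all 6 fits without 1 library). Fbn1 shares 2442 exon bases with Gm9913 on the opposite strand.

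Mfap2 and Mfap5 encode the small glycoproteins MAGP-1 and MAGP-2, which bind fibrillin on the microfibril. The difference between the ages was larger for Mfap5 than for Mfap2 (by -2.19 ± 0.25 SE on the log2 scale, limma adjusted p 0.000225). Mfap2 (chromosome 4, 141010424 to 141015976, plus strand) measured 579.5, 530.7 and 662.2 RPKM in infants, against 390.8, 412.0 and 417.4 RPKM in young adults. The groups did not overlap, with the nearest libraries 1.27-fold apart, and the libraries of each group lay close together. Infant libraries averaged 590.8 ± 66.5 RPKM and young adult libraries 406.7 ± 14.1 RPKM (SD, n = 3 each), a ratio of 1.45. With a log2 fold change of -0.53 ± 0.15 (SE) and an adjusted p of 0.0371, Mfap2 stayed under the fold threshold. In the fits without 1 library its adjusted p ran from 0.00909 to 0.124. Under quantile normalization, which shifted the median of all genes from -0.07 to 0.04, the log2 fold change of Mfap2 was -0.83 and it was called (adjusted p 0.0169). Mfap2 held rank 32 in infant and rank 64 in young adult EC among all genes. Its other transcript row, NM_008546, had nearly the same values, from 578.2 RPKM in infant replicate 1 to 415.6 RPKM in young adult replicate 3, so the rows cannot be taken as separate measurements of the start sites.

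Mfap5 (chromosome 6, 122513584 to 122529290) measured 21.7, 11.6 and 26.1 RPKM in infants, against 1.3, 3.2 and 1.8 RPKM in young adults. All infant libraries lay at least 3.62-fold above the highest young adult library. It fell by 2.72 on the log2 scale (SE 0.31, adjusted p 0.00206) and was called in all 22 alternatives tried. Within a library, the RPKM ratio of Mfap2 to Mfap5 was 26.7, 45.8 and 25.4 in infants, against 300.6, 128.8 and 231.9 in young adults.

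Mfap4 (chromosome 11, 61485431 to 61488708) encodes a protein that binds elastin and collagen and takes part in elastic fibre assembly. It had the largest fall of the 10 genes on the log2(RPKM + 1) scale. It measured 159.4, 81.5 and 182.6 RPKM in infant replicates 1 to 3. In young adult replicates 1 to 3 it measured 1.7, 3.8 and 3.7 RPKM. The lowest infant library was 21.4 times the highest young adult library, and the infant libraries spanned only a 2.24-fold range. The log2 fold change was -5.09 ± 0.33 (SE), the adjusted p 0.000389, and the call held in all 22 alternatives. Mfap4 and Mfap5 were the genes that passed the test against the fold threshold itself, with adjusted p of 0.00138 and 0.0237 (limma treat). Mfap4 shares 89 exon bases with Mapk7 on the opposite strand.

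**Figure D1:**
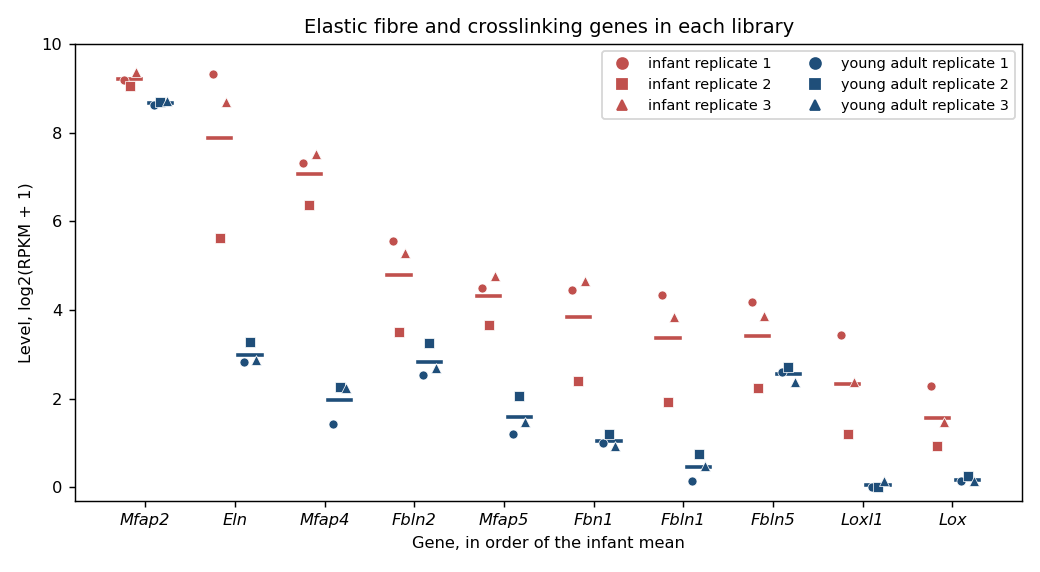
Level of each of the 10 genes in each library as log2(RPKM + 1), in order of the infant mean. Points are libraries and horizontal lines the means of the plotted values (n = 3 per group). Mfap2 lies near the top at both ages, Eln, Mfap4 and most others drop, and for Fbln5 infant replicate 2 (3.7 RPKM) lies below all young adult libraries.

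The fibulins, calcium-binding linker proteins of elastic fibres and basement membranes, were graded in their differences. Fbln1 (chromosome 15, 85205949 to 85286294) measured 19.1, 2.8 and 13.4 RPKM in infants, against 0.1, 0.7 and 0.4 RPKM in young adults. The groups did not overlap, and the gene fell by 2.90 on the log2 scale (SE 0.55, adjusted p 0.011). Its adjusted p was 0.0513 without young adult replicate 1, where the call was lost.

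Fbln2 (chromosome 6, 91212460 to 91272540), which is known in the walls of developing vessels, measured 46.1, 10.4 and 38 RPKM in infant replicates 1 to 3. It measured 4.8, 8.6 and 5.5 RPKM in young adult replicates 1 to 3, so that infant replicate 2 was 1.21 times young adult replicate 2. The log2 fold change was -1.95 ± 0.49 (SE) at an adjusted p of 0.0267. This call was made in 1 of the 6 fits that left out 1 library, that without infant replicate 2, and the highest adjusted p among the 6 was 0.0963. It was also lost with robust eBayes. A further transcript row, NM_007992, gave a log2 fold change of -1.95 as well.

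Fbln5 (chromosome 12, 101746565 to 101819119) encodes a fibulin that binds elastin, lysyl oxidase-like enzymes and integrins and is needed for elastic fibre assembly. It measured 17.1, 3.7 and 13.5 RPKM in infants, against 5.1, 5.6 and 4.2 RPKM in young adults. Infant replicate 2 lay below every young adult library, whereas infant replicates 1 and 3 lay above them. The log2 fold change was -0.85 ± 0.45 (SE), and the adjusted p was 0.193. Without infant replicate 2 the gene was called at an adjusted p of 0.000262, and it was also called with array weights. The within-library RPKM ratio of Eln to Fbln5 was 37.5, 13 and 30.7 in infants, against 1.20, 1.55 and 1.5 in young adults.

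Lox and Loxl1 encode the copper-dependent lysyl oxidases that crosslink elastin and collagen, and both had low levels. Loxl1 (chromosome 9, 58287723 to 58313212) measured 9.8, 1.3 and 4.2 RPKM in infant libraries. It was listed at 0 in young adult replicates 1 and 2 and at 0.1 RPKM in young adult replicate 3. The ratio of the infant to the young adult mean was 153, against 52.3 for Eln, but it rests on that value of 0.1 RPKM. The fall was 2.29 on the log2 scale (SE 0.48, adjusted p 0.0148), and its call was lost on leaving out young adult replicate 1 or 2, where the adjusted p reached 0.0638.

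Lox (chromosome 18, 52516060 to 52529867) measured 3.9, 0.9 and 1.8 RPKM in infants, against 0.1, 0.2 and 0.1 RPKM in young adults. The groups did not overlap, but the young adult values were close to the rounding step of the table, which keeps 1 decimal. Lox fell by 1.39 (SE 0.31, adjusted p 0.0185). It was called in 2 of the 6 fits without 1 library, and not with a pseudocount of 5 or under quantile normalization, where its adjusted p was 0.0535. In the fits without infant replicate 3 or without any 1 young adult library the adjusted p of Lox lay between 0.0529 and 0.0671. Lox shares 30 exon bases with an antisense gene.

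**Figure D2:**
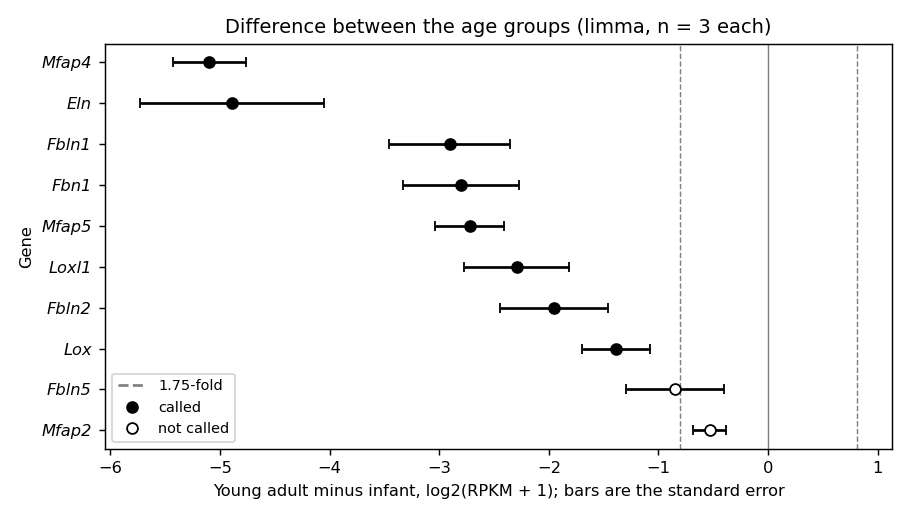
Difference between young adult and infant EC for the 10 genes on the log2(RPKM + 1) scale, with the standard error of the limma fit (3 libraries per group). Filled points were called and dashed lines mark the fold threshold. Mfap4 (-5.09) and Eln (-4.89) lie far to the left of the other genes on this scale, and Fbln5 (-0.85) and Mfap2 (-0.53) were not called. With a pseudocount of 0.1 in place of 1 (not plotted), Loxl1 (-4.95) came close to Eln (-5.05) and Mfap4 (-5.48).

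Across the 10 genes, every young adult library was below every infant library in 9 cases, where this held for 27.1% of all tested genes. The exception was Fbln5. 9 of the 10 genes were lower at an adjusted p under 0.05 without regard to fold size, against 16.2% of all tested genes. To compare genes with Mfap2, the log2 ratio of each gene to Mfap2 was taken in every library and fitted in the same way over 12457 genes, a comparison chosen after the values were seen. 5.82% of all genes fell relative to Mfap2 at an adjusted p under 0.05. Of the other 9 elastic fibre genes 8 did so, from Mfap4 (difference in log2 fold change -4.56 ± 0.26 SE, adjusted p 5.46e-06) and Eln (-4.36 ± 0.67, adjusted p 0.000849) to Lox (-0.86 ± 0.28, adjusted p 0.0222). For Fbln5 the difference from Mfap2 was -0.32 ± 0.36 (adjusted p 0.443).

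The make-up of the group changed with the single genes. Summed RPKM over the 10 genes was 1519, 695.3 and 1380 in infants, against 411.0, 444.1 and 440.4 in young adults. Without Mfap2 the sum was 939.2, 164.6 and 718.3 RPKM in infants, against 20.2, 32.1 and 23.0 RPKM in young adults. Mfap2 made up 38.2%, 76.3% and 48.0% of the whole in infant and 95.1%, 92.8% and 94.8% in young adult EC. Eln made up 42.2%, 6.92% and 30.03% in infant and 1.48%, 1.96% and 1.43% in young adult EC. Eln exceeded Mfap2 in infant replicate 1 and in no other library.

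**Figure D3:**
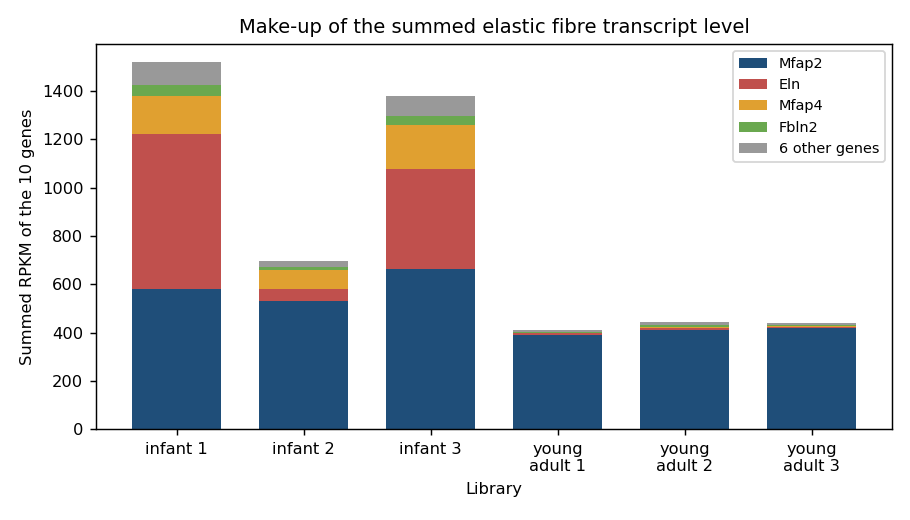
Summed RPKM of the 10 genes in each of the 6 libraries, split into Mfap2, Eln, Mfap4, Fbln2 and the other 6 genes. Mfap2 gives 530.7 to 662.2 RPKM in the infant and 390.8 to 417.4 RPKM in the young adult libraries, and most of the remainder is found in infant replicates 1 and 3.

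Levels per length allowed the genes to be ordered within a group. In infant EC the order of mean RPKM was Mfap2, Eln, Mfap4, Fbln2, Mfap5, Fbn1, Fbln1, Fbln5, Loxl1 and Lox. Only Mfap4, with 81.5 RPKM in its lowest library, was separated from the next gene, Fbln2, with 46.1 RPKM in its highest, and all other neighbours overlapped. In young adult EC the order was Mfap2, Eln, Fbln2, Fbln5, Mfap4, Mfap5, Fbn1, Fbln1, Lox and Loxl1. Mfap2 stood far above Eln there, Fbln5 (4.2 to 5.6 RPKM) above Mfap4 (1.7 to 3.8 RPKM), and Fbn1 (0.9 to 1.3 RPKM) above Fbln1 (0.1 to 0.7 RPKM), while the other neighbours overlapped or touched. Mfap4 thus went from the third place to the fifth, and Fbln5 from the eighth to the fourth. 9 genes had at least 1 RPKM in all infant libraries and 6 in all young adult libraries.

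Infant replicate 2 was then compared with the mean of infant replicates 1 and 3. Mfap2 reached 85.5% of that mean in it, Mfap5 48.5% and Mfap4 47.7%. The other genes reached less, from 31.6% for Lox over 24.7% for Fbln2, 24.2% for Fbln5, 19.0% for Fbn1, 18.6% for Loxl1 and 17.2% for Fbln1 down to 9.11% for Eln. Summed fibroblast markers stood at 27.7% and summed mural markers at 32.7%, whereas summed endothelial markers stood at 143.1%. Summed arterial endothelial markers (48.7%) and erythroid markers (17.5%) were also low in it, and summed epithelial (151.6%) and leukocyte markers (143.0%) were high. The arterial sum was led by Mgp (26.1%). Gja4 (47.0%), Cxcl12 (51.4%), Gja5 (89.7%) and Sox17 (93.8%) were lower in it too, but Bmx (105.0%), Dll4 (129.0%), Efnb2 (137.5%) and Hey1 (169.0%) were higher. The leukocyte sum was led by Lyz2 (154.3%), whereas Cd68 (91.6%), Csf1r (71.0%), Cd79a (56.1%), Ptprc (53.6%) and S100a8 (33.1%) were lower in it. The part of these cells in the low levels of the 10 genes was not tested. The fibroblast markers were not uniform, since Dcn (19.9 RPKM against 7.6 and 8.0) and Lum (14.4 RPKM against 4.1 and 4.7) were higher in infant replicate 2. Leaving out infant replicate 2 raised the number of called genes from 8 to 9 and moved the median log2 fold change to -2.95. The share of all tested genes called lower rose as well, from 8.1% to 10.6%. In young adult EC, 8 of the 10 genes were highest in replicate 2 and 8 were lowest in replicate 1 (a shared lowest or highest value was given to the lower number). There the fibroblast markers summed to 9.1, 20.8 and 18.3 RPKM in replicates 1 to 3.

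**Figure D4:**
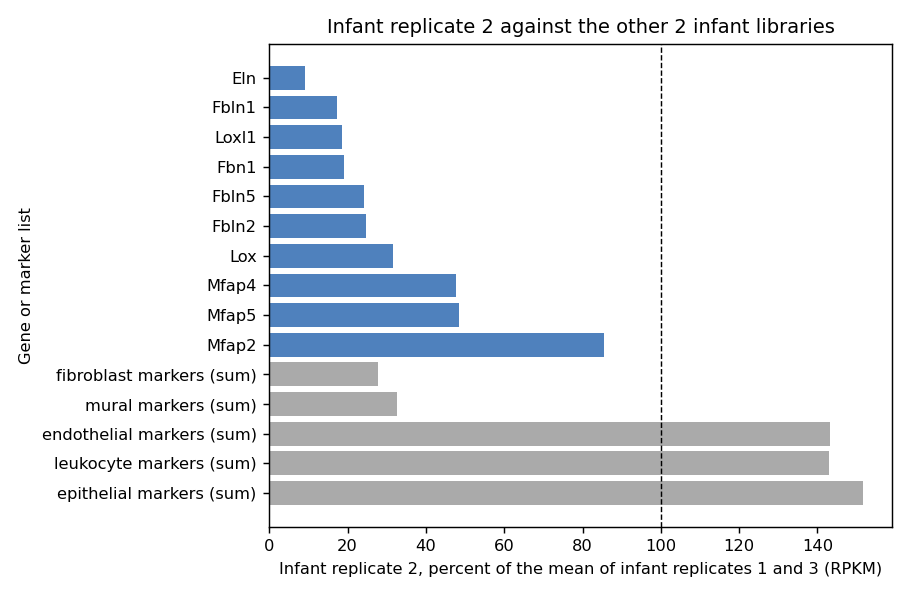
RPKM in infant replicate 2 as a percentage of the mean of infant replicates 1 and 3, for the 10 genes (blue) and for the summed markers of 5 cell types (grey). The dashed line marks an equal level. Eln is lowest at 9.11% and Mfap2 is nearest to the line among the 10 genes at 85.5%, while the fibroblast and mural sums lie at 27.7% and 32.7%.

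The genes whose level followed each of the 10 most closely were sought among 6976 genes averaging 5 RPKM or more, by Pearson correlation of log2(RPKM + 1) over the 6 libraries. These values describe 6 points in 2 age groups that share their libraries, so any gene with an age difference correlates. The correlation also takes no account of the size of a change. Pdcl, listed for Eln, ran only from 15.9 to 20.6 RPKM over the 6 libraries. Closest to Eln were Thbs2 (r = 0.9998), which encodes thrombospondin 2, Pdcl (0.9992) and Col6a3 (0.9991). Fstl1 (0.9981), Pdgfrl and Maged2 were closest to Fbn1, and Cgnl1, the laminin gene Lamb1 and Rcn3 to Fbln1. For Fbln2 the closest was Ltbp4 (0.9993), which encodes a latent TGFb-binding protein of the microfibril, followed by Ipo9 and Fndc3b. For Fbln5 they were Rasa3 (0.9938), Bmp4 and Slc2a10. Mfap2 was followed most closely by Hbb-bs (0.9977) and Hbb-bt, globin genes that were highest in infant replicate 3, as Mfap2 was. Ppic, Tpm1 and Il1rl2 were closest to Mfap4 (0.9963 for Ppic) and Rgcc, Ndrg2 and Gucy1a3 to Mfap5 (0.9990 for Rgcc). LOC101055698, H2afy2 and Kifap3 were closest to Lox, and H2afy2, Smtn and Rora to Loxl1, with r between 0.9876 and 0.9979.

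To place the 10 genes in their pathway, 60 further genes of microfibrils, elastin assembly, crosslinking, degradation and binding were listed, of which 50 were in the table and 49 passed the filter. 16 were called lower and 4 higher, with a median log2 fold change of -0.48. Of all tested genes 8.1% were called lower and 3.33% higher, and the counts of the single lists below stand beside the same shares. Latent TGFb-binding proteins, which tether TGFb to microfibrils, gave 3 of 4 called lower. Ltbp2 measured 71.4, 7.2 and 67.0 RPKM in infants, against 0.2, 0.6 and 0.4 RPKM in young adults (difference -4.62, adjusted p 0.0065), and it was called in all 6 fits without 1 library. Ltbp3 (-1.02) and Ltbp4 (-0.93) were called in 1 of these fits each.

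Among 7 other microfibril and fibulin genes, Emilin1 alone was called (-1.08, adjusted p 0.0218). Its call was lost on leaving out young adult replicate 1 (adjusted p 0.0791) or 2 (0.0798) and with a pseudocount of 5. Its product EMILIN-1 lies between elastin and microfibrils. Fbn2, the gene of fibrillin-2, measured 2.3, 0.1 and 2.2 RPKM in infant and was listed at 0 in all young adult libraries (adjusted p 0.0649). Efemp2, which encodes fibulin-4, measured 25.9, 14.5 and 32.1 RPKM in infants, against 12.7, 15.1 and 16.1 RPKM in young adults (adjusted p 0.111). Mmrn2, an EMILIN family gene of EC, was higher in young adult EC by 0.66 (adjusted p 0.0166), under the fold threshold. Mmrn1 (-0.61, adjusted p 0.039) was under it too, at means of 1.13 RPKM in infant and 0.4 RPKM in young adult EC. It was called with a pseudocount of 0.1. 3 of 8 ADAMTS and ADAMTSL genes, secreted proteins of which several bind fibrillin, were called lower, namely Adamts10 (-2.01), Adamts17 (-1.81) and Adamtsl2 (-1.69). Adamts10 and Adamts17 were called in all 6 fits without 1 library, but Adamtsl2 in 2 of them, with an adjusted p of up to 0.0681. Adamtsl3 (-0.68, adjusted p 0.0194) stayed under the fold threshold, at means of 1.03 RPKM in infant and 0.27 RPKM in young adult EC. It too was called with a pseudocount of 0.1. Adamts10 was abundant in infant EC at 146.2, 50.5 and 99.9 RPKM, and measured 17, 26 and 22.9 RPKM in young adult EC.

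Crosslinking enzymes and their helpers were divided. Of 15 tested genes 6 were called lower and 2 higher, with a median of -0.19. Loxl2 (-2.20, adjusted p 0.00798) and Loxl3 (-0.83, adjusted p 0.039), further lysyl oxidases, were lower, as were Pcolce (-2.53), Fkbp10 (-1.80), P4ha3 (-1.72) and Bmp1 (-0.85), which act on procollagen. Of these, Loxl3, P4ha3 and Bmp1 were called in 1 of the 6 fits without 1 library. Tgm2, the gene of a transglutaminase that crosslinks matrix proteins by another chemistry, measured 14.4, 16.5 and 14.5 RPKM in infants, against 71.1, 67.5 and 71.9 RPKM in young adults. It rose by 2.14 (SE 0.09, adjusted p 7.66e-05) and was called in all 6 fits without 1 library. P4ha2, a prolyl hydroxylase gene, rose by 1.12 (adjusted p 0.000642). The lysyl hydroxylase genes Plod1, Plod2 and Plod3 had log2 fold changes of -0.16, -0.19 and 0.05, with adjusted p of 0.295 at the lowest.

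Elastin-degrading enzymes gave 3 of 5 called lower, Mmp2 (-2.55), Mmp14 (-2.05) and Ctsk (-1.54), of which Ctsk was called in 2 of the 6 fits without 1 library and Mmp2 in 5. Ctss, which is abundant in macrophages, measured 17.7, 15.9 and 20.3 RPKM in infants, against 2.3, 7.8 and 15.4 RPKM in young adults (adjusted p 0.0963). Of 10 receptor genes 2 were called higher and none lower at the fold threshold. By sign alone, 5 of these genes were lower and 5 higher. Itgb1 (-0.48, adjusted p 0.0168) and Glb1 (-0.41, adjusted p 0.0362) were lower without overlap of the groups, but stayed under the fold threshold. Neu1 differed little between the ages (0.05, adjusted p 0.789). Ctsa, a lysosomal carboxypeptidase gene whose product forms part of the elastin receptor complex, rose by 1.11 (adjusted p 0.00335). Cd36, a scavenger receptor gene, rose by 1.08 (adjusted p 0.0402) but was called in 1 of the 6 fits without 1 library. Itgav, which encodes the integrin alpha V chain that binds fibrillin and fibulin-5, measured 5.5, 3.0 and 5.6 RPKM in infants, against 3.1, 2.7 and 3.1 RPKM in young adults (adjusted p 0.105).

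**Figure D5:**
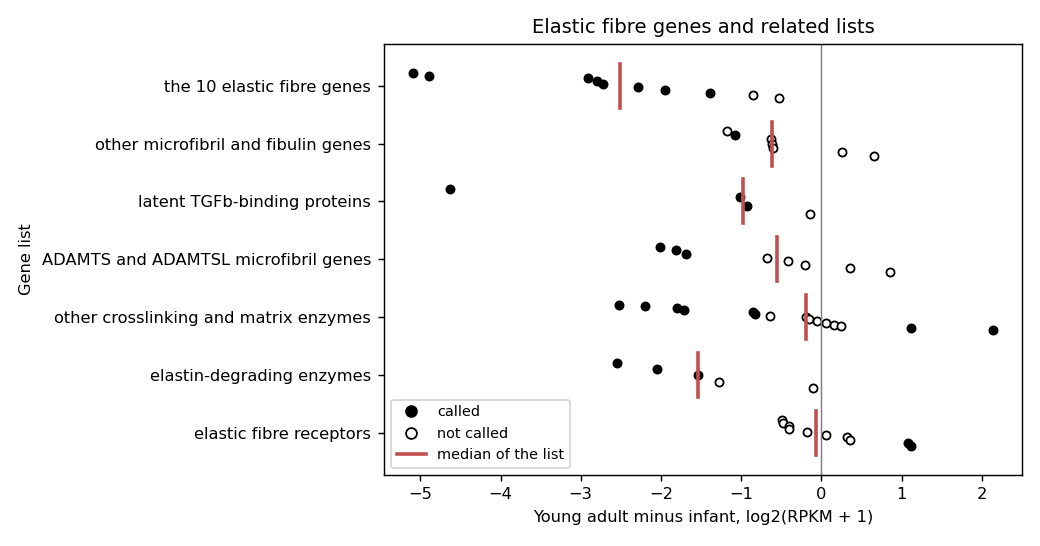
Difference between young adult and infant EC on the log2(RPKM + 1) scale for the 10 elastic fibre genes and 6 related lists. Each point is a gene, filled when called, and the vertical line is the median of the list (-2.51 for the 10 genes and -0.06 for the receptors). Tgm2 (2.14) is the point farthest to the right.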

How the data were processed

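RNA-seq libraries of sorted lung EC were made with a SMARTer Ultra Low kit from 10 ng of RNA. The authors sequenced paired ends, aligned them to mm10 with STAR (version not given in the sources used here), with RefSeq gene models, and compared the ages with DESeq2. Deposited values are RPKM with 1 decimal, for 17241 transcript rows. They are not counts, so depth is unknown. RPKM totals lay between 362970 and 428155 per library. RPKM scales with the whole library, so that abundant globin transcripts lower other values.

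Groups and replicate numbers came from the titles. For each gene the row with the highest mean RPKM was kept. Because the values were RPKM, no count model was fitted, and genes were tested with limma 3.58.1 (R 4.3.3) across all genes on log2(RPKM + 1), with age as the single term, an intensity trend and Benjamini-Hochberg adjustment. Genes with at least 1 RPKM in at least 1 library were tested. This filter and the size of the fold threshold (0.81 on the log2 scale) follow the study, but the threshold was applied here to log2(RPKM + 1). The pseudocount of 1 understates changes of low genes. The script was tested on simulated data. Coordinates are whole gene spans in GRCm38.p6. Exon overlaps came from GENCODE.

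Named were the 10 genes, called genes of the pathway lists (at most 20), pathway genes of opposite direction, the 3 most similar genes each (1 is not reported here), and others of the pathway lists as examples chosen after their values were seen. Members and lists were chosen with earlier results of these data known. The lists of arterial, venous, epithelial, mesothelial, leukocyte, erythroid and lymphatic markers gave 2 of 9, 1 of 5, 4 of 9, 1 of 1, 3 of 6, 5 of 5 and 0 of 4 tested genes called lower, and 0, 4, 1, 0, 0, 0 and 1 called higher.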

Additional observations from a re-analysis of the deposited data

How the results depend on the processing

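The 10 elastic fibre genes and the pathway lists were refitted under 22 alternatives. None of the 220 recomputed values of the 10 genes changed sign. 194 kept their side of the threshold, 22 lost the call and 4 gained it. With limma treat, which tests against the fold threshold, 2 of the 10 genes and 2 pathway genes were called lower and 1 pathway gene higher. A pseudocount of 0.1 gave a median of -3.35 for the 10 genes and a pseudocount of 5 a median of -1.51. With a pseudocount of 5, 8 pathway genes were called lower. Without 1 library, 4 to 9 of the 10 genes were called lower, and 7 to 18 pathway genes lower. The lowest counts came without young adult replicate 1. The pathway count was 9 on leaving out any of infant replicate 1, infant replicate 3 or young adult replicate 2. The causes were not tested. Same-numbered libraries did not deviate together (correlations of 0.03, -0.11 and -0.02 across genes). A replicate block gave 7 of the 10 genes, without Fbln2, and 13 pathway genes lower, without Emilin1 (adjusted p 0.0567), Ltbp4 and Loxl3. Across all genes, 1009 were called lower and 415 higher, against 338 and 240 with a pseudocount of 5, 124 and 52 with limma treat, 2022 and 1154 without the fold threshold, 611 and 532 under quantile normalization, and 514 and 328 without young adult replicate 1. Other fits without 1 library gave 551 to 1308 lower and 312 to 566 higher calls. The unknown depth of each library limits genes under about 1 RPKM, such as Lox and Loxl1 in young adult EC.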
